A study of Mus musculus with 15 samples.

Results

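RNA of axotomized retina with acupuncture at the acupoint BL1 (ONC-J) was compared with RNA of axotomized retina without acupuncture (ONC). The comparison uses 6 of the 15 libraries of the series, 3 per group, and covers the 19259 genes that passed a low-count filter, of 54532 genes in the count table. The filter, the scaling and the spread behind the p-values were taken from all 15 libraries. All mice were C57BL/6 wild type, labelled as 5 weeks old, and the methods of the study state a slightly higher age. In both groups both optic nerves were crushed (ONC, optic nerve crush) and the retinas were taken days later. ONC-J mice were also needled several times at BL1 on both sides under anesthesia. The text of the study does not say whether ONC mice were anesthetized again, so needling and anesthesia cannot be told apart here. The methods state that the experiment was repeated, with several mice in a group each time, but not whether a replicate number stands for a repeat or whether a library came from a single animal or from pooled retinas, and n counts libraries throughout, so p-values measure the spread between libraries. The other groups, used here for context, were intact retina (WT), crush with acupuncture at GB20 (ONC-F) and crush with needling at GV16 (ONC-S), the sham point for GB20, with 3 libraries each.

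The optic nerve is formed by the axons of retinal ganglion cells (RGCs), the output neurons of the retina. Crushing it cuts these axons, and in the following days RGCs switch on injury transcription factors such as Jun and Atf3, lose markers of their mature state and begin to die, while Mueller glia and microglia react. BL1 lies at the inner corner of the eye. Glucocorticoids, hormones of the adrenal gland, bind a receptor that switches genes on and off in many tissues, the retina among them. The RNA here came from whole retina, in which photoreceptors are the most numerous cells and RGCs are rare, so fewer cells of a type and less RNA per cell cannot be told apart.

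The ONC libraries held 17154653 to 19885288 counts and the ONC-J libraries 17634077 to 21828251. Levels are given as CPM, counts scaled to the library size after TMM normalization, and differences as log2 fold changes from the quasi-likelihood model of edgeR with their standard errors (SE). All 17 rod markers on the list for the most numerous retinal cells passed the filter, and their average log2 CPM, with WT set to 0, lay between −0.22 and −0.0096 in the ONC libraries and between −0.10 and 0.02 in the ONC-J libraries. ONC replicate 2 stood apart from the other ONC libraries in genes of gliosis and immune cells, and ONC-J replicate 2 in Mt1 and Plin4, as given beside those genes. The ONC-S libraries stood far from all others, with 2791 genes called against ONC. In the series the ONC-S samples are numbered in a run apart from all other groups, and the methods describe fewer groups than the series holds. Whether ONC-S was prepared apart is not stated, so needling at GV16 and a separate preparation cannot be told apart. Spearman correlations of log2 CPM were 0.991 to 0.994 within ONC and ONC-J and 0.991 to 0.993 between them.

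With acupuncture at BL1, 20 genes were called higher (0.104% of the genes tested) and 4 lower (0.0208%) at an adjusted p under 0.05. The genes called higher included Penk, the precursor of the enkephalin opioid peptides, the transporter gene Slc6a13, the tight junction gene Cldn1, the stress-induced gene Fam107a and the polyamine synthesis gene Odc1. All 4 genes called lower were pseudogenes. The log2 fold changes of the genes called higher ran from 0.31 to 2.48, and 8 of the 24 called genes had a log2 fold change of 1 or more in size. The 3 ONC-J libraries lay outside the range of the 3 ONC libraries in all 24, as they did in 2604 of all genes tested (13.5%). At an unadjusted p under 0.05, 835 genes were higher (4.34%) and 770 were lower (4.0%). The plot of all genes shows few genes standing above a broad base. The count of calls rested on single libraries. It was 13 without ONC replicate 1, 7 without ONC replicate 2, 2 without ONC replicate 3, 16 without ONC-J replicate 1, 5 without ONC-J replicate 2 and 61 without ONC-J replicate 3. DESeq2 called 81 genes with all 15 libraries, which included the 24. All 24 kept their direction in every alternative that was run. This gives no separate support, because the 24 were chosen on the same libraries and their groups did not overlap. The pseudogenes Gm6485 and Gm7336 stayed called without any 1 of the 6 libraries.

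**Figure D1:**
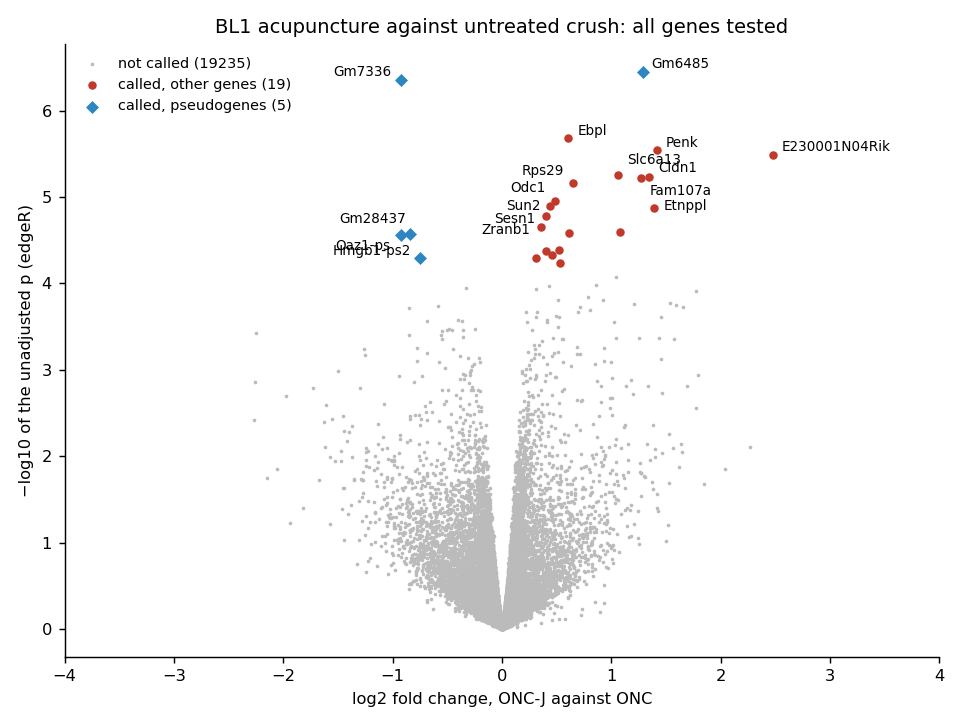
Log2 fold change of ONC-J against ONC (horizontal) and −log10 of the unadjusted p of edgeR (vertical) for the 19259 genes tested, 3 libraries per group. Red points are the 19 called genes that are not pseudogenes, all to the right of 0, and blue diamonds are the 5 called pseudogenes, of which 4 lie to the left.

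Penk (chromosome 4, 4133531 to 4138819, mm10) was more than doubled in its level. It was at 12.2, 11.2 and 10.4 CPM in the ONC libraries and at 23.7, 35.2 and 31.3 CPM in the ONC-J libraries. The lowest ONC-J library therefore stood well above the highest ONC library. The log2 fold change was 1.42 (SE 0.22, adjusted p = 0.0125, edgeR). Intact retina had 23.8, 31.9 and 25.6 CPM, which overlaps ONC-J. Penk was called lower in ONC than in WT, by −1.27 (adjusted p = 0.0016), a comparison that shares the ONC libraries, and ONC-J and WT differed by 0.15 (adjusted p = 0.773). The call of Penk in ONC-J against ONC ended without ONC replicate 3 (1.37, adjusted p = 0.0648) and without ONC-J replicate 2 (1.29, adjusted p = 0.0626). Penk overlaps A830012C17Rik on the other strand, and whether reads were assigned by strand is not given in the sources used here.

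Slc6a13, which encodes a plasma membrane transporter of GABA and taurine, had a similar order of groups. It was at 5.90, 5.72 and 6.76 CPM in ONC and at 11.2, 12.9 and 14.2 CPM in ONC-J, a log2 fold change of 1.06 (SE 0.17, adjusted p = 0.0146). Its WT libraries were at 11.3, 8.88 and 11.5 CPM, and Slc6a13 was the other gene among the 20 that was called lower in ONC than in WT (−0.78, adjusted p = 0.0150; 407 genes, 2.11%, were called in ONC against WT). Cldn1, a claudin that seals tight junctions between cells, was at 2.45, 2.04 and 1.60 CPM in ONC and at 5.14, 5.18 and 5.28 CPM in ONC-J (1.35, SE 0.22, adjusted p = 0.0146). The ONC-J libraries agreed closely here, at levels above all 3 WT libraries (2.94, 4.54 and 3.01 CPM). Without 1 library, the call of Slc6a13 was lost in 4 of 6 cases and that of Cldn1 in 3 of 6, with largest adjusted p of 0.0682 and 0.1. These cases were without ONC replicate 2, ONC replicate 3 and ONC-J replicate 2 for both genes, and without ONC replicate 1 for Slc6a13.

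Of the 20 genes called higher, 2 were called lower in ONC than in WT, namely Penk and Slc6a13, and 13 were also called higher in ONC-J than in WT, where 696 genes (3.61%) were called, and these values share the ONC-J libraries. Odc1, the rate-limiting enzyme of polyamine synthesis, was at 127, 129 and 121 CPM in ONC and at 190, 160 and 177 CPM in ONC-J, against 130, 120 and 122 CPM in WT. It rose by 0.48 (SE 0.08, adjusted p = 0.0214), a call that held in 2 of the 6 cases with 1 library left out (without ONC-J replicate 2 and without ONC-J replicate 3). Ebpl, which encodes a protein related to the sterol isomerase EBP, was at 140, 130 and 136 CPM in ONC and at 191, 236 and 190 CPM in ONC-J (0.61, SE 0.09, adjusted p = 0.0125). Etnppl, an enzyme that breaks down phosphoethanolamine and is abundant in astrocytes of the brain, was at 19.0, 13.6 and 12.1 CPM in ONC and at 37.7, 51.6 and 28.6 CPM in ONC-J (1.39, SE 0.24, adjusted p = 0.0217). The spread of Etnppl among ONC-J libraries was wide, with replicate 2 on top.

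Mal, a membrane raft protein of myelin and of epithelial cells, had mean levels of 3.01 ± 0.49 CPM in ONC and 6.39 ± 1.10 CPM in ONC-J (SD, n = 3 each). The lincRNA E230001N04Rik had the largest fold change of the called genes, 2.48 (SE 0.38), from 0.843 ± 0.287 to 4.74 ± 1.29 CPM. Sesn1, a p53 target whose protein restrains the growth kinase mTORC1, rose by 0.40, and Btg3, of an antiproliferative family, rose by 0.62. Sun2, a protein of the inner nuclear membrane that links the nucleus to the cytoskeleton, rose by 0.44, and Zranb1, a deubiquitinase, by 0.36. The remaining 5 genes fall outside the naming rule and were named after their values were seen. Gnb5 and Guca1a act in photoreceptors, where Gnb5 is part of the complex that switches transducin off and Guca1a activates guanylate cyclase, and they rose by 0.40 and 0.45. Guca1a was at 656, 509 and 574 CPM in ONC and at 850, 818 and 713 CPM in ONC-J. The chaperone gene Hspa14 rose by 0.31, the small nucleolar RNA host gene Snhg8 by 0.52 and the ATP synthase subunit gene Atp5k by 0.53, with an adjusted p of 0.0464 for Atp5k, the highest of the 24. Besides Penk, the called genes Ebpl, Slc6a13, Odc1, E230001N04Rik, Sesn1, Btg3, Sun2, Zranb1, Gnb5, Hspa14, Snhg8, Gm6485 and Oaz1-ps overlap other annotated genes, so part of their reads could belong to a neighbour.

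**Figure D2:**
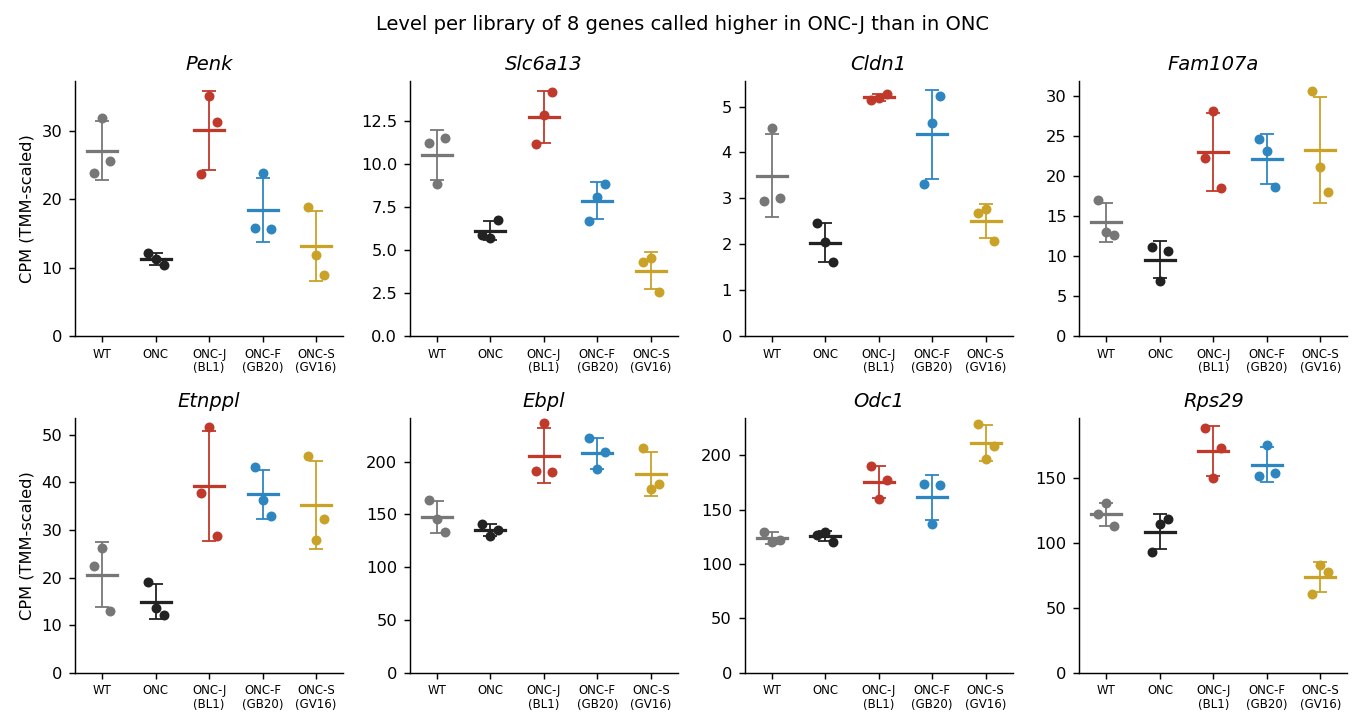
CPM after TMM scaling (vertical, from 0) in each library of WT, ONC, ONC-J, ONC-F and ONC-S for 8 genes called higher in ONC-J than in ONC, with the mean (thick line) and SD (bars) of 3 libraries. ONC-J lies above ONC in each panel, Penk and Slc6a13 in ONC-J are near WT, and Rps29 is lowest in ONC-S (60.7 to 82.9 CPM).

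A pseudogene is a copy of a gene that usually makes no protein, and reads of a close copy can be assigned to the wrong place. The sequences below are shown because each called pseudogene was close to 1 gene in the transcript sequences of GENCODE vM21 (GRCm38), which was looked up after their values were seen. Over their full lengths, with gaps counted as differences, Gm28437 (chromosome 1, 24613189 to 24613971) was 100% identical to mt-Co3, a mitochondrial gene for a subunit of cytochrome c oxidase, and Gm7336 (chromosome 7, 51746647 to 51747878) was 99.8% identical to Gapdh, a glycolytic enzyme. Oaz1-ps was 99.7% identical to Oaz1, whose protein, antizyme, inhibits the enzyme made by Odc1. Hmgb1-ps2 was 98.3% identical to Hmgb1, a chromatin protein, and Gm6485, the pseudogene called higher, was 92.3% identical to H3f3b, which encodes histone H3.3. For each pair a stretch of 60 bases of coding sequence is given, or of 30 bases for Gm7336 and Gapdh, which did not differ in the coding part. Capitals mark bases that differ between copy and gene.
Gm28437: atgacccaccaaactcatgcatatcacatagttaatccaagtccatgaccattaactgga
mt-Co3: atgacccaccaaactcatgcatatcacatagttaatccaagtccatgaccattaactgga
Gm7336: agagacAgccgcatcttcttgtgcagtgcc
Gapdh: agagacGgccgcatcttcttgtgcagtgcc
Oaz1-ps: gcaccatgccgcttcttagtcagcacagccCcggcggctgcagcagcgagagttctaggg
Oaz1: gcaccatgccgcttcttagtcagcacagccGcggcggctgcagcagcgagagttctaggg
Hmgb1-ps2: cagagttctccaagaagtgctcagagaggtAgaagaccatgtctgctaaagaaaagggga
Hmgb1: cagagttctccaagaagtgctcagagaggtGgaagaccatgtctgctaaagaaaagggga
Gm6485: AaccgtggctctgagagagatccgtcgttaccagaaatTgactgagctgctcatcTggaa
H3f3b: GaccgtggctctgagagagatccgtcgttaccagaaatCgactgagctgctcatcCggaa

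Gm7336 was at 24.3, 24.8 and 25.8 CPM in ONC and at 10.1, 14.8 and 14.4 CPM in ONC-J, a log2 fold change of −0.93 (SE 0.12, adjusted p = 0.0042). Gapdh itself was at 42.7, 125 and 49.6 CPM in ONC and at 38.0, 40.5 and 28.9 CPM in ONC-J, so its libraries did not overlap either, with a wide spread in ONC, and it was not called (−1.01, SE 0.60, adjusted p = 0.699). Of 15 other tested copies of Gapdh, at least 95% identical over at least 80% of their length, 13 had a log2 fold change below 0 (9931 of all 19259 genes did) and 6 were lower at an unadjusted p under 0.05 (4.0% of all genes). Of 6 such copies of Hmgb1, 4 were below 0 and 1 had an unadjusted p under 0.05, and the most abundant, Gm5518, was at −0.0043. Gm28437 was at 31.1, 29.2 and 34.0 CPM in ONC and at 18.6, 16.5 and 17.6 CPM in ONC-J (−0.84, SE 0.15, adjusted p = 0.0296). Its twin mt-Co3 was at 38.0, 36.9 and 63.6 CPM and at 32.1, 22.7 and 28.7 CPM, with a log2 fold change of −0.73 (SE 0.36, adjusted p = 0.619). The level of mt-Co3 was far below that of mt-Co1, another cytochrome c oxidase gene of the same genome (means of 7485 CPM in ONC and 7882 CPM in ONC-J). How reads that match several places were counted is not given in the sources used here, and the counts of these copies and genes cannot be separated.

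For the other pseudogenes the matching gene was far more abundant and was not called. Oaz1-ps was at 6.10, 7.02 and 5.73 CPM in ONC and at 2.88, 3.59 and 3.45 CPM in ONC-J (−0.92, SE 0.17, adjusted p = 0.0296), and Oaz1 was 89.0 times higher than its copy in ONC and differed by −0.14 (adjusted p = 0.445). Hmgb1-ps2, whose call was lost without any 1 of the 6 libraries, had −0.75 (SE 0.14, adjusted p = 0.0430) and Hmgb1 0.06 (adjusted p = 0.883). Gm6485 was at 2.80, 2.43 and 2.87 CPM in ONC and at 7.74, 5.41 and 6.73 CPM in ONC-J (1.29, SE 0.17, adjusted p = 0.0042), and H3f3b had 0.33 (SE 0.10, adjusted p = 0.265) with every ONC-J library (785 to 907 CPM) above every ONC library (642 to 705 CPM). Over all 1071 pseudogenes tested, 5.70% were higher and 9.15% lower at an unadjusted p under 0.05, beside 4.26% and 3.69% of the other 18188 genes.

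**Figure D3:**
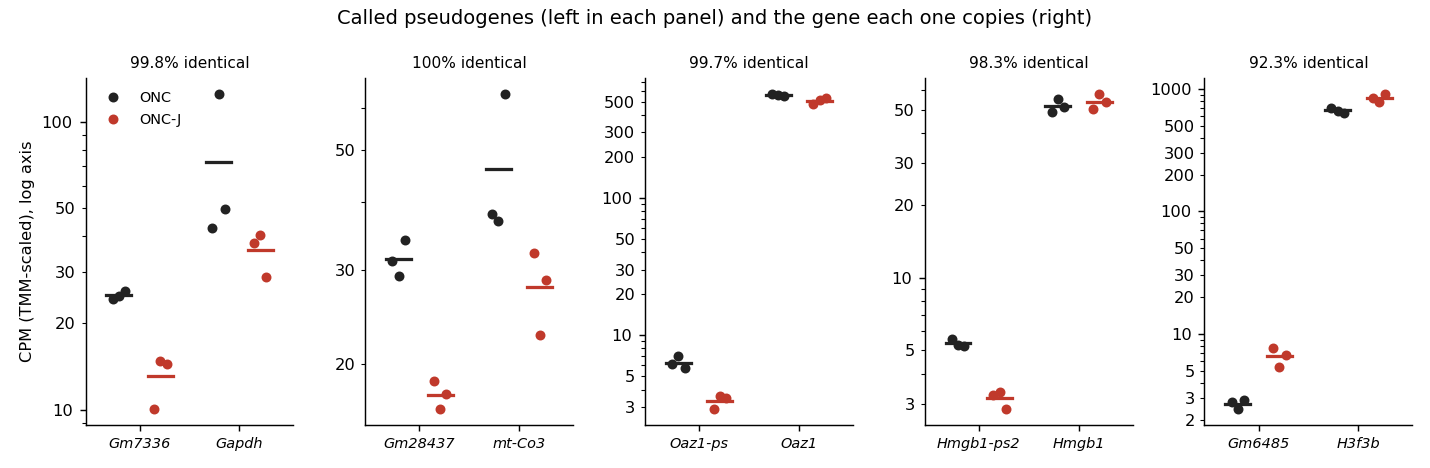
CPM after TMM scaling (vertical, log axis, a scale of its own in each panel) in the ONC (black) and ONC-J (red) libraries for the 5 called pseudogenes and the gene each one copies, with the mean of 3 libraries as a line. In the first 2 panels copy and gene are both lower in ONC-J (Gapdh means 72.3 and 35.8 CPM), and in the others the gene is much more abundant than its copy.

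Below the threshold, the 6 genes with the next smallest p on the lower side were not called and are given as values. Slitrk2, a neuronal membrane protein, was at 37.7, 36.1 and 38.9 CPM in ONC and at 28.4, 30.3 and 31.0 CPM in ONC-J (−0.33, adjusted p = 0.0770). Kdr, the main receptor for VEGF on endothelial cells, had −0.58 (adjusted p = 0.0914), with 209 to 258 CPM in ONC and 116 to 189 CPM in ONC-J. Gpr37, an orphan receptor, had −0.40, Ftl1, the ferritin light chain, −0.36, and Stc1, a secreted glycoprotein hormone, −0.69, each at an adjusted p of 0.0990. Rpl34-ps1, a copy of a ribosomal protein gene, had −0.85 (adjusted p = 0.0935).

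Of the 41 hand-written lists, that of genes that respond to glucocorticoids had the largest share of members on the higher side at an unadjusted p under 0.05 (54.2%). The list held 24 tested genes, of which 1, Fam107a, was called higher, 13 were higher and 1 lower at an unadjusted p under 0.05, and the median log2 fold change was 0.44 (all genes tested: 4.34% higher, 4.0% lower, median −0.0046). Fam107a, which encodes an actin-binding protein induced by stress, was at 11.1, 6.85 and 10.7 CPM in ONC and at 22.3, 28.2 and 18.5 CPM in ONC-J (1.27, SE 0.20, adjusted p = 0.0146). All ONC-J libraries were above all ONC libraries, and the call ended without ONC replicate 2 (1.08, adjusted p = 0.0690), without ONC replicate 3 (1.36, adjusted p = 0.0634) and without ONC-J replicate 2 (1.09, adjusted p = 0.102). Klf15, a transcription factor of metabolism, was at 8.14 to 10.2 CPM in ONC and at 12.3 to 13.8 CPM in ONC-J (0.51, adjusted p = 0.0914). Mt1, a metallothionein that binds zinc, was at 52.6, 68.1 and 44.1 CPM in ONC and at 87.7, 211 and 81.2 CPM in ONC-J (1.21, SE 0.26, adjusted p = 0.0914). Glul, glutamine synthetase of Mueller glia and the most abundant gene of the list, had 0.06 (adjusted p = 0.934).

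The mean log2 CPM of the list, relative to WT, was 0.11, 0.19 and 0.05 in the ONC libraries and 0.64, 0.87 and 0.42 in the ONC-J libraries, so the groups did not overlap. ONC-J replicate 2 was highest, and it also had the highest level of Mt1 and of Plin4, a lipid droplet protein (12.8 CPM, against 5.71 and 4.09 CPM in the other ONC-J libraries and 2.35 to 2.72 CPM in ONC). Among members named after their values were seen, Fkbp5, a co-chaperone of the glucocorticoid receptor, was at 23.7, 23.4 and 20.6 CPM in ONC and at 41.7, 61 and 23.8 CPM in ONC-J (0.91, adjusted p = 0.197). Hif3a had 1.33, Zbtb16 1.04 and Tsc22d3 0.25, and none of them was called (adjusted p of 0.197, 0.381 and 0.332). Without ONC replicate 2 and ONC-J replicate 2, a choice made after seeing the data, 14 members were higher and 0 lower at an unadjusted p under 0.05 and the median was 0.38. The median of the list was 0.32 in ONC-F against ONC, which shares the ONC libraries, and ONC-J differed from ONC-S by a median of 0.12 and from ONC-F by 0.07.

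The promoters of Fam107a and Mt1 are shown because they hold the letters of a glucocorticoid response element. In RefSeq promoter windows of 300 bases (GRCm38.p6, 250 before to 50 after the start), the palindrome of this element (GNACA, 3 bases of any kind, then TGTNC) occurred in at least 1 window of 4 of the 22 list genes with an entry (Fam107a, Map3k6, Mt1 and Sgk1), and in 145 of 27025 genes with an entry in all (0.537%). The list holds known targets of the receptor, so this is a description of the list. A match says that the letters are present, not that a factor was bound. Capitals mark this palindrome and, in Mt1 only, the metal response elements TGCACNC or TGCGCNC, searched on both strands and found in 7630 of the 27025 genes (28.2%). The Fam107a window also holds 1 metal response element, on the other strand (GAGTGCA), which is left in lower case. None of the marked stretches overlapped another. In Fam107a, which has 3 windows, the one shown lies at chr14:8309728-8310027 on the minus strand, and in Mt1 at chr8:94178839-94179138 on the plus strand. Of the 24 called genes, 17 had an entry.
Fam107a: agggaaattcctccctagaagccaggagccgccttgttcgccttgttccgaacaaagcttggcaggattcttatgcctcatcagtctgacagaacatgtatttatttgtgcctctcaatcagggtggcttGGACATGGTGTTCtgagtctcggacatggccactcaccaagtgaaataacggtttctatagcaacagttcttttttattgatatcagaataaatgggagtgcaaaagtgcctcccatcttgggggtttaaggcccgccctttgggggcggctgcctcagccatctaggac
Mt1: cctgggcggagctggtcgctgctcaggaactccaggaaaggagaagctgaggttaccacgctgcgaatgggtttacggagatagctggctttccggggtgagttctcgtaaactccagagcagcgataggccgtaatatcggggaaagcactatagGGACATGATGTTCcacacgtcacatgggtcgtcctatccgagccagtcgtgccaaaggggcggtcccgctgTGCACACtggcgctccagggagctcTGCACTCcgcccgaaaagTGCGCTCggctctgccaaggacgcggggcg

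**Figure D4:**
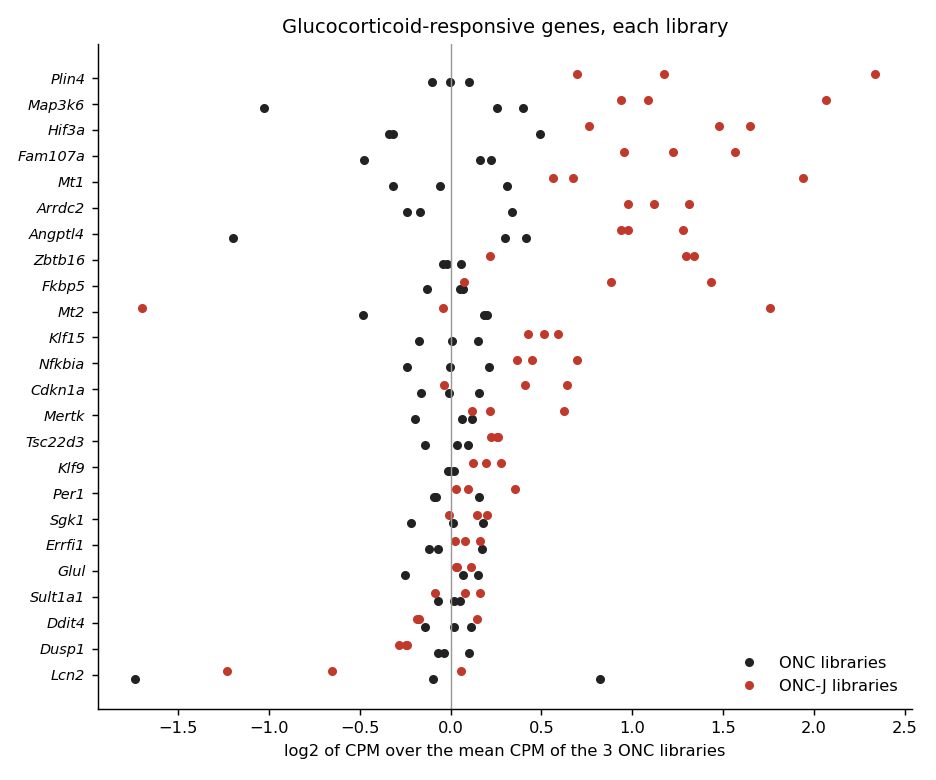
Level of each of the 24 tested glucocorticoid-responsive genes in the 3 ONC (black) and 3 ONC-J (red) libraries, as log2 of CPM over the mean CPM of ONC (horizontal), with genes ordered by their log2 fold change. The ONC-J libraries of Plin4, Fam107a and Mt1 lie to the right of all ONC libraries, and those of Glul, Ddit4 and Lcn2 overlap them.

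Of the genes the study measured by qRT-PCR or stained for, only Penk had a called change between ONC-J and ONC, in RNA of whole retina. Ddit3, which encodes the stress factor CHOP, was at 64.9, 68.4 and 69.9 CPM in ONC and at 68.0, 70.3 and 68.9 CPM in ONC-J, against 36.3 to 38.4 CPM in WT (0.03, SE 0.07, adjusted p = 0.957). Sox11, a factor of axon growth, was at 16.6 to 18.4 CPM in ONC, 14.7 to 19.7 CPM in ONC-J and 2.25 to 3.11 CPM in WT (0.04, SE 0.18). Jun had 0.18 (SE 0.07, adjusted p = 0.490), Klf6 −0.10 (SE 0.11) and Nav1 0.03 (SE 0.06), the last being a microtubule-associated protein. The injury factor Atf3 was at 26.9, 37.0 and 28.1 CPM in ONC and at 45.3, 44.4 and 39.8 CPM in ONC-J, with 4.17 to 4.78 CPM in WT. Its groups did not overlap, and its difference of 0.49 (SE 0.13) was not called (adjusted p = 0.174). Mt3, the metallothionein of neurons, was at 9.36, 11.8 and 9.57 CPM in ONC and at 14.1, 17.6 and 13.5 CPM in ONC-J (0.56, SE 0.14, adjusted p = 0.147). Fbn1, the microfibril protein fibrillin, had 0.69 (SE 0.17, adjusted p = 0.133). The study discusses Fbn1 but reports no qRT-PCR or staining of it.

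RGC markers were below WT in both injured groups. Of 23 tested pan-RGC markers, 0 were called by edgeR. At an unadjusted p under 0.05, 1 was higher (Ebf1, 0.26, adjusted p = 0.498) and 0 lower. The share on the higher side was 4.35%, against 4.34% of all genes, and the median of the markers was 0.03. The mean of their log2 CPM, taken relative to WT, was −0.76, −0.68 and −0.70 in ONC and −0.66, −0.68 and −0.64 in ONC-J. Rbpms, an RNA-binding protein found in all RGCs, was at 14.2, 14.9 and 15.1 CPM in ONC and at 15.3, 14.8 and 15.2 CPM in ONC-J, against 23.8 to 28.4 CPM in WT. Its difference was 0.04 (SE 0.13), and that of Tubb3, neuronal beta-tubulin, was 0.15 (SE 0.09, adjusted p = 0.715). Nefl, a neurofilament subunit and the most abundant of these markers, had mean levels of 161 CPM and 165 CPM. Of 25 RGC subtype markers, 1 was called higher, Penk as described above, and 0 were called lower. At an unadjusted p under 0.05, 2 were higher (8%) and 1 lower (4%, against 4.0% of all genes), with a median of 0.06. Cartpt, a neuropeptide precursor on this list, was at 69.9, 75.4 and 68.2 CPM in ONC and at 93.1, 80.4 and 80.2 CPM in ONC-J (0.25, adjusted p = 0.221).

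No gene was called in the lists of injury and stress genes. In the axon injury list, 5 of 27 members were higher (18.5%) and 1 lower (3.70%) at an unadjusted p under 0.05. The shares over all genes were 4.34% and 4.0%. The median of the list was −0.02, with 13 members above 0 and 14 below. Gadd45a, a DNA damage and stress gene, had 0.38 (adjusted p = 0.143). Of 30 genes of the integrated stress response, in which ATF4 and CHOP act on amino acid supply, 5 were higher (16.7%) and 0 lower (median 0.06). The amino acid transporter genes Slc7a5 and Slc3a2 and the mitochondrial folate enzyme gene Mthfd2 had 0.36, 0.17 and 0.63. Of 28 immediate early genes, 3 were higher (10.7%) and 2 lower (7.14%).

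A set of crush genes was formed without the 6 libraries of this comparison, from genes that ONC-F and ONC-S each changed in 1 direction against WT. Both groups were needled, so a change that needled groups share belongs to this set as well as the response to crush. Of the 176 genes higher in both, 8 were called higher in ONC-J against ONC, namely Ebpl, Odc1, Sun2, Zranb1, Mal, Btg3, Gnb5 and Hspa14, and 0 were called lower (0.104% and 0.0208% of all genes). Of all 20 genes called higher in ONC-J against ONC, these 8 included, 0 were called higher in ONC than in WT. The count of 8 was 0 without ONC replicate 3 and 14 without ONC-J replicate 3. At an unadjusted p under 0.05, 52 were higher (29.5%, against 4.34% of all genes) and 2 lower (1.14%, against 4.0%), with a median of 0.10, or 0.03 over genes called in ONC-S against WT alone. The mean log2 CPM of these genes relative to WT was 0.88, 0.91 and 0.86 in ONC and 1.04, 1.06 and 0.96 in ONC-J. Of the 158 genes lower in both, 0 were called in ONC-J against ONC. At an unadjusted p under 0.05, 3 were higher (1.90%, against 4.34% of all genes) and 15 lower (9.49%, against 4.0%), with a median of −0.01.

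Ribosomal protein genes held more members on the higher side, by small amounts. Of 41 tested, 1 was called higher (Rps29), as were 0.104% of all genes. At an unadjusted p under 0.05, 14 were higher (34.1%, against 4.34% of all genes) and 0 lower (4.0% of all genes). The median was 0.09, and it was 0.10 in ONC-F against ONC, which shares the ONC libraries. Rps29 was at 93.1, 114 and 118 CPM in ONC and at 188, 150 and 172 CPM in ONC-J (0.65, SE 0.11, adjusted p = 0.0146). Rps28 had 0.47 and Rpl38 0.36, with adjusted p of 0.114 and 0.118. Without ONC replicate 1 the count of 14 fell to 7, and the call of Rps29 was lost in 3 of the 6 cases with 1 library left out (largest adjusted p of 0.0736). Among 32 nuclear genes of the respiratory chain, 1 was called higher (Atp5k). At an unadjusted p under 0.05, 6 were higher (18.8%) and 1 lower (3.13%), with 0.39 for Uqcrb (adjusted p = 0.179). The call of Atp5k was lost without any 1 of the 6 libraries (largest adjusted p of 0.181). Atp5k was at 31.1, 30.6 and 36.8 CPM in ONC and at 49.8, 42.2 and 50.3 CPM in ONC-J. Both Rps29 and Atp5k were lower in ONC-S (60.7 to 82.9 and 19.2 to 24.8 CPM) than in any other group, and across bins of exon length the median difference of all genes stayed between −0.03 and 0.0041.

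Of 22 hypoxia-responsive genes, 0 were called by edgeR, and 0 were higher and 7 lower (31.8%, against 4.0% of all genes) at an unadjusted p under 0.05, with a median of −0.16. The median of the list was −0.14 in ONC-F against ONC, which shares the ONC libraries, and 0.19 in ONC-J against ONC-S. The collagen hydroxylase gene P4ha1 was at 72.6, 74.0 and 74.2 CPM in ONC and at 41.1, 49.2 and 64.1 CPM in ONC-J (−0.52, SE 0.15, adjusted p = 0.240). Ldha, lactate dehydrogenase, had −0.22 (adjusted p = 0.257) and the histone demethylase gene Kdm3a −0.39 (adjusted p = 0.285). ONC-J replicate 3 was the closest to ONC in this list. Without it 15 members were lower, and without ONC replicate 2 there were 4. Of 20 circadian clock genes, 0 were called, and 0 were higher and 5 lower (25%, against 4.0% of all genes) at an unadjusted p under 0.05. Among the 5 were Dbp (−0.28, adjusted p = 0.204) and Per2 (−0.26, adjusted p = 0.282). The hour at which each retina was taken is not given in the sources used here. Of the 5, 2 remained at this threshold without ONC-J replicate 1.

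Gliosis and immune genes took their direction from ONC replicate 2. Of 23 tested genes of reactive gliosis, 0 were called. At an unadjusted p under 0.05, 0 were higher and 4 lower (17.4%, against 4.0% of all genes), with a median of −0.19. The mean log2 CPM of the list relative to WT was 0.13, 1.64 and 0.73 in ONC and 0.42, 0.95 and 0.62 in ONC-J. Without ONC replicate 2, 5 members were higher and 1 lower and the median turned to 0.34. Timp1, an inhibitor of matrix proteases, was at 0.851, 6.23 and 2.12 CPM in ONC and at 0.904, 1.14 and 0.915 CPM in ONC-J (−1.61, adjusted p = 0.251). Lgals3, a galectin of activated phagocytes, was at 2.25, 12.7 and 2.81 CPM in ONC and at 1.92, 2.41 and 2.26 CPM in ONC-J (−1.42, adjusted p = 0.368). Of 24 microglia and macrophage markers, 1 was higher (4.17%, against 4.34% of all genes) and 3 lower (12.5%). Their median of −0.15 turned to 0.23 without that library. Apoe, an apolipoprotein made by glia and the most abundant of them, had 0.24 (adjusted p = 0.241), and Cx3cr1, the fractalkine receptor of microglia, −0.69 (adjusted p = 0.469). The median of 28 interferon-stimulated genes was −0.39 and −0.04 without that library.

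Genes known from tissue around the retina were counted as well. Of 10 tested genes of iris, ciliary body, cornea and sclera, 0 were called. At an unadjusted p under 0.05, 3 were higher (30%, against 4.34% of all genes) and 0 lower, with a median of 0.35. The 3 were Ptgds, a prostaglandin synthase, Optc, a proteoglycan of the vitreous, and Wfdc1. The level of Optc was 7.05, 10.4 and 7.56 CPM in ONC and 14.9, 27.4 and 24.8 CPM in ONC-J (1.43, SE 0.34, adjusted p = 0.114), and that of Ptgds 93.4, 91.9 and 109 CPM and 161, 148 and 167 CPM (0.69, SE 0.15, adjusted p = 0.0944). The mean log2 CPM of the list relative to WT was −0.49 to −0.35 in ONC and −0.16 to −0.05 in ONC-J, so the groups did not overlap. Of 18 pigment epithelium and visual cycle genes, 1 was higher (5.56%) and 0 lower at this threshold, with a median of 0.09. Of 11 skeletal muscle genes, 0 were higher and 0 lower, with a median of 0.30. In the extracellular matrix list 6 of 32 genes were higher (18.8%) and 2 lower (6.25%, against 4.0% of all genes). Among the 6 were Fbn1, Fbln1 and Col5a2 with 0.69, 0.93 and 1.16. Slc6a13 and Cldn1 are known from epithelia and membranes around neural tissue as well, and the part of such tissue in their calls was not tested. The lens gene Cryaa was at 14.3, 12.8 and 1.20 CPM in ONC and at 2.54, 0.546 and 45.1 CPM in ONC-J, which follows single libraries and not the groups.

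**Figure D5:**
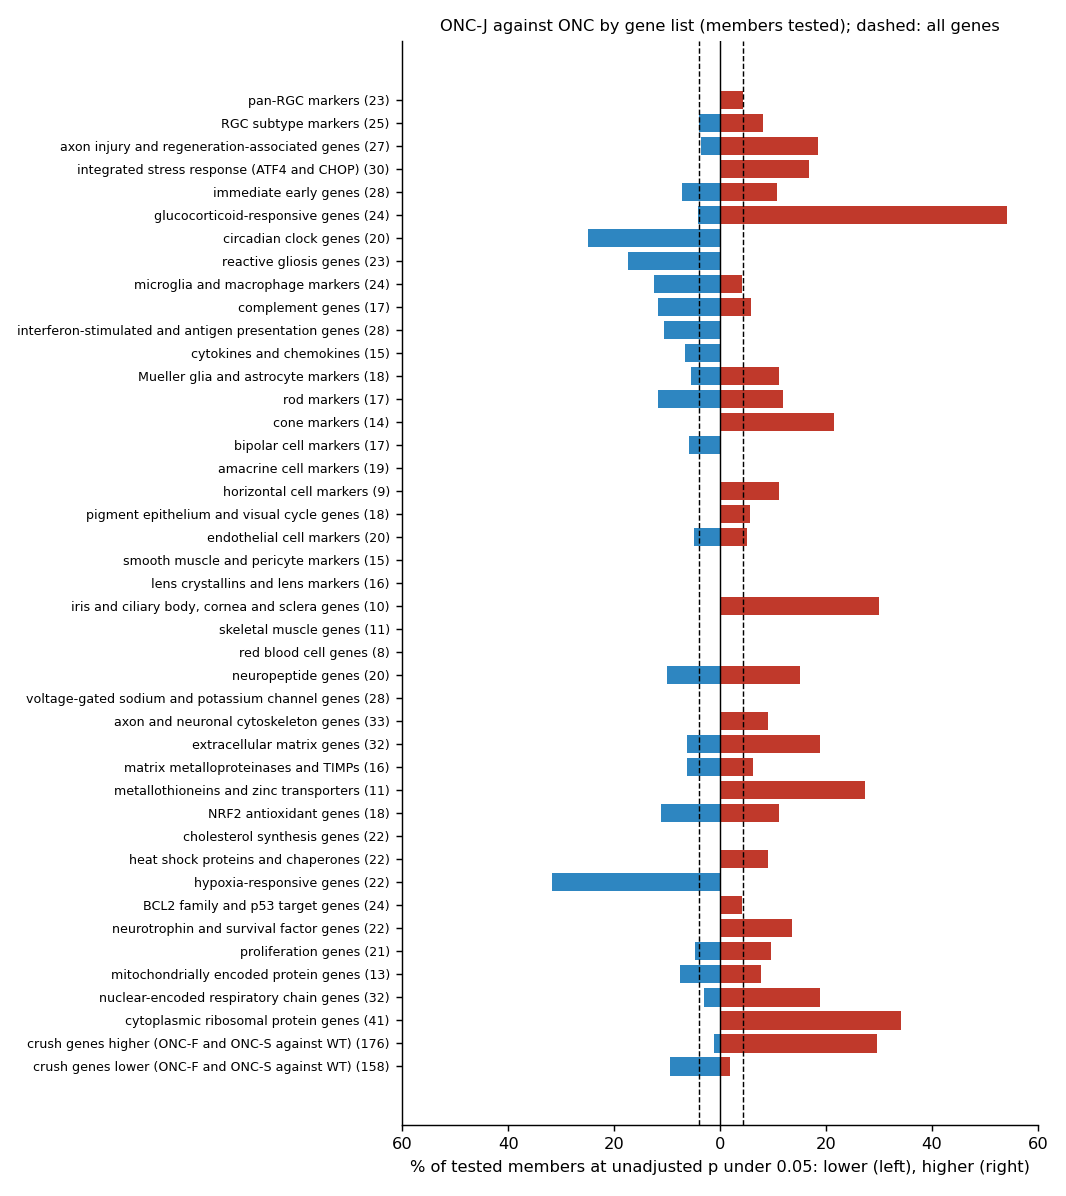
Share of tested members (percent, horizontal) that were lower (blue, to the left) and higher (red, to the right) in ONC-J than in ONC at an unadjusted p under 0.05, for 41 gene lists and the crush genes, with the number tested in parentheses. Dashed lines are the shares over all genes, 4.34% higher and 4.0% lower, and the longest bars are those of glucocorticoid-responsive genes (54.2%) on the right and hypoxia-responsive genes (31.8%) on the left.

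Against acupuncture at GB20, no gene was called in ONC-J by edgeR (0.0%), with 645 genes (3.35%) at an unadjusted p under 0.05, and DESeq2 called 1. For the 24 genes called against ONC, the lowest adjusted p in this comparison was 0.999. Penk, with 15.8, 23.8 and 15.6 CPM in ONC-F, was 0.70 higher in ONC-J (SE 0.21, unadjusted p = 0.003), and Slc6a13, with 6.71, 8.10 and 8.83 CPM, was 0.69 higher (SE 0.17, unadjusted p = 0.00055). Of the 20 genes called higher, 4 had an unadjusted p under 0.05 against ONC-F, the others being Gm6485 and Btg3. Fam107a had 24.6, 23.2 and 18.6 CPM in ONC-F, and Ebpl 222, 193 and 209 CPM, within the range of ONC-J. The mean of ONC-F lay on the same side of ONC as the mean of ONC-J in all 24, but both comparisons share the ONC libraries. With no low-count filter edgeR called 85 genes in this comparison, and without ONC-F replicate 2 it called 1.

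Against the sham point GV16, 2484 genes were called (12.9%), 1210 higher and 1274 lower in ONC-J, as the ONC-S libraries stood apart from all groups. The ONC-S group had a sham point for GB20, not for BL1, and the point needled cannot be told apart from a separate preparation of its samples. Of the 20 genes called higher against ONC, 7 were also called higher against ONC-S, 1 was called lower (Odc1) and 12 were not called. Penk, with 18.9, 11.8 and 8.92 CPM in ONC-S, was 1.19 higher in ONC-J (SE 0.22, adjusted p = 0.00108). Fam107a, with 30.7, 21.1 and 18.1 CPM, differed by −0.02 (adjusted p = 0.970), and Etnppl, with 45.6, 27.9 and 32.3 CPM, by 0.16 (adjusted p = 0.700). Of the 4 pseudogenes called lower against ONC, 3 were called lower against ONC-S, with Oaz1-ps as the exception.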

How the data were processed

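RNA was measured in 15 retinal libraries, of which the 6 of ONC and ONC-J form the main comparison. The authors aligned paired-end reads of poly-A RNA to mm10 with HISAT2 2.0.5 and deposited raw counts per gene made with featureCounts, and they computed FPKM values from counts and gene length. The annotation release, strand setting and treatment of reads with several matches are not given in the sources used here. Here the deposited counts were filtered (filterByExpr of edgeR, minimum count 10, minimum total 15), scaled by TMM and fitted in one quasi-likelihood model (edgeR 4.0.16) with the 5 groups as terms, and p-values were adjusted by Benjamini-Hochberg over the 19259 genes tested and called under 0.05. Libraries of all groups held 14482435 to 26112762 counts. The 41 gene lists were written by hand, and the comparison, lists and rules were chosen with earlier results of these data known. Lists are described by counts and medians, with no test. The text names up to 15 called genes in each direction by smallest p, the genes the study measured by qRT-PCR or stained for, up to 3 members of a list at an unadjusted p under 0.05, and its most abundant member. Where under 10 genes were called in a direction, those with the next smallest p were added as values. Other genes were named after their values were seen. Alternatives were DESeq2 1.42.0, limma 3.58.1 (voom weights, and log2 FPKM with a pseudocount of 1 or 0.1), other filters and scaling, the 6 libraries alone, the replicate number as a term, and each library left out. Copies were aligned with blastn 2.17.0 and edlib. Mean ± SD are over libraries and include counting error, which was not estimated separately.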

Additional observations from a re-analysis of the deposited data

Results flagged for a closer look

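Of the 24 genes called in ONC-J against ONC, 11 also differed between ONC-J and ONC-S at an adjusted p under 0.05 (edgeR), a comparison that shares the ONC-J libraries by which the 24 were chosen. The log2 difference of ONC-J from ONC-S was 1.19 for Penk, 1.77 for Slc6a13, 1.06 for Cldn1, 1.59 for Gm6485, 1.21 for Rps29, 1.09 for Atp5k and 0.97 for Snhg8. It was −1.55 for Gm7336, −1.26 for Hmgb1-ps2 and −0.55 for Gm28437. Odc1 differed by −0.27, since it was higher in ONC-S than in ONC-J. The ONC-S libraries stood apart from all other groups, and 12.9% of all genes tested differed in this comparison. Against ONC-F none of the 24 differed at an adjusted p under 0.05.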

How the results depend on the processing

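The number of genes called in ONC-J against ONC was 24. It was 356 with no low-count filter, 81 with DESeq2 on 15 libraries, 96 with DESeq2 on the 6 libraries, and 9 and 4 with limma on log2 FPKM with a pseudocount of 1 and 0.1. It ran from 2 to 61 with 1 library left out, and was 6 without ONC replicate 2 and ONC-J replicate 2, a choice made after seeing the data. The causes were not tested. RLE scaling kept all 24 calls, edgeR on the 6 libraries alone called 26 and kept 13 of the 24, and limma on log2 FPKM kept 6 and 3. With the replicate block 48 genes were called, the 24 included. Same-numbered ONC and ONC-J libraries correlated at 0.0792, 0.0243 and −0.00504 in their deviations from the group means, and differently numbered ones at −0.0702 to 0.0443. Same-numbered ONC-F and ONC-J libraries correlated at 0.0558, 0.0835 and 0.182, and differently numbered ones at −0.11 to 0.0282. The main model did not pair samples by number, although the methods describe repeats of the experiment to which the numbers could refer. Whether same-numbered libraries share a repeat was not tested. ONC-J against ONC-F gave 85 calls with no filter, 1 with DESeq2 and 0 to 1 with 1 library left out, and ONC-J against ONC-S gave 1358 to 2112 with 1 library left out. The median of genes higher than WT in both ONC-F and ONC-S was 0.0968, and 0.0312 over genes called in ONC-S against WT alone. Differences near 0 changed sign when libraries were left out. With 1 library left out, Ddit3 ran from −0.0015 to 0.0591, Sox11 from −0.0408 to 0.161, Klf6 from −0.208 to 0.0285, Nav1 from −0.0011 to 0.0767 and Glul from −0.0515 to 0.142. Without both replicates 2, Sox11 was at −0.0667 and Glul at −0.037.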

Other observations

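Among the 158 genes lower after crush in ONC-F and ONC-S, the one with the smallest p in ONC-J against ONC moved toward WT and was not called. At an unadjusted p under 0.05 (edgeR), 3 of the 158 were higher in ONC-J and 15 lower. Crhbp, which encodes a protein that binds the stress peptide CRH, was at 6.25, 9.73 and 8.14 CPM in ONC and at 11.1, 16.2 and 16.3 CPM in ONC-J, with a log2 fold change of 0.86 (SE 0.18, adjusted p = 0.0769, edgeR). Its ONC-J libraries lay above all ONC libraries, and it was noticed after its values were seen. Among the 176 genes higher than WT in both ONC-F and ONC-S, Ip6k2, an inositol phosphate kinase, was at 404, 316 and 300.2 CPM in ONC and at 546, 670.3 and 464 CPM in ONC-J (0.72, adjusted p = 0.0914), also not called.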
